A study of Mus musculus with 18 samples.

Results

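Ank, Fam221a, Kcnip2, Trim5, Coro2a, Ddr1, Wfikkn2 and Btbd2 are 8 genes seldom discussed in T cells. They were selected on their measured expression, out of 15137 genes in the deposited table, because their values moved strongly in naive CD4+ T cells kept for 8 h in culture without stimulation. All 8 passed the minimum level used here, a linear value of at least 10 in 3 libraries, as did 10877 genes (71.9%). In control cells 7 of them were higher after culture and Coro2a was lower. In Creld1 cKO cells Ank, Fam221a, Kcnip2 and Trim5 were higher and Coro2a was lower to a similar extent, while the libraries of Ddr1, Wfikkn2 and Btbd2 overlapped. That overlap came from cKO fresh library 3 alone. Because culture chose the genes, their culture values are given as a description with no test.

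The series asked how loss of Creld1, a membrane protein with EGF-like domains, changes naive CD4+ T cells at rest and on activation. RNA was sequenced from splenic CD4+ cells of C57BL/6J mice, sorted for CD62L and against CD44 and CD25, in 6 groups of 3 libraries. The Creld1 cKO groups carried a conditional knockout made with CD4-Cre, a recombinase that acts in developing and mature T cells, and the others were labelled control, with no Cre or floxed status stated for them. For each genotype, 1 group was cultured for 8 h with anti-CD3 and anti-CD28 antibodies at 1 µg/ml, which trigger the T cell receptor and its co-receptor CD28, 1 group was cultured for 8 h without them, and 1 group was taken fresh. The sources used here do not give mouse age, the Creld1 exons removed or whether groups shared mice. Nor do the labels say that the 3 libraries of a group came from separate mice, so the p-values below measure the spread between libraries, which may be partly technical.

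Creld1 itself had log2 values of 4.14, 4.62 and 4.37 in cKO and 4.41, 5.10 and 4.71 in control stimulated cells. It had 3.95, 4.33 and 3.82 in cKO and 4.81, 4.88 and 5.40 in control unstimulated cells, and 4.19, 3.70 and 4.40 in cKO and 4.33, 4.85 and 4.57 in control fresh cells. The genotypes were separated only in unstimulated culture. Averaged over conditions Creld1 was lower in cKO cells, at a log2 difference of -0.62 ± 0.13 (SE) and a limma adjusted p of 0.344, and how many of its reads lie outside the deleted exons is unknown. The naive CD4+ label fitted its markers: all 8 listed markers in the table passed the minimum, Cd4 averaging 12.74. Of the markers of other cells in the table, 3 of 5 for memory or effector and 4 of 4 for regulatory T cells passed too, as did 1 of 5 for CD8 T and NK cells (Cd8b1, averaging 6.41), 2 of 5 for B cells, 1 of 6 for myeloid cells (Itgam, 4.47), 1 of 6 for stromal, endothelial and epithelial cells (Pecam1, 10.9) and 1 of 2 for red cells and platelets.

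The 8 proteins have different roles. Ank is a membrane protein, named for the progressive ankylosis mouse, that lets pyrophosphate and other small anions out of cells. Ddr1 is a receptor tyrosine kinase that is activated by collagen, and Wfikkn2 is a secreted inhibitor of the growth factors GDF8 and GDF11. Kcnip2 is a calcium-binding partner of Kv4 potassium channels, best known in heart. Trim5 belongs to the tripartite motif ubiquitin ligases, among which primate TRIM5 restricts retroviruses, and human BTBD2 is a BTB-domain protein that binds topoisomerase I and a TRIM5 isoform. Coro2a is a coronin, an actin-binding protein that in macrophages takes part in the NCoR corepressor complex. Fam221a is named only as a family member, its role being little described. The procedure of taking T cells out of the spleen and keeping them in medium is itself a stimulus, and early response genes are known to be raised by tissue processing and to decline afterwards.

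The promoters of Ank, Fam221a, Trim5 and Coro2a are shown because these genes moved alike in both genotypes while their promoters differ widely in CpG content. The RefSeq windows run from 250 bases before to 50 after the start of the gene (GRCm38.p6), and capitals mark GGGCGG on either strand (CCGCCC when read on the printed strand), the box bound by Sp-family factors. The Ank window lies at chr15:27466427-27466726 on the plus strand, that of Fam221a at chr6:49367489-49367788 on the plus strand, that of Trim5 at chr7:104288057-104288356 on the minus strand and the upstream one of Coro2a at chr4:46601880-46602179 on the minus strand.
Ank: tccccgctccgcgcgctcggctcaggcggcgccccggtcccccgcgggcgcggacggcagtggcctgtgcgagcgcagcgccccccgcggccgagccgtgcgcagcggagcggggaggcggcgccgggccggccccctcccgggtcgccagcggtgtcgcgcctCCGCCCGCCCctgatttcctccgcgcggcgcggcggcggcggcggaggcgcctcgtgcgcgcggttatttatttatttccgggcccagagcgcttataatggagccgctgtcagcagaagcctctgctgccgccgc
Fam221a: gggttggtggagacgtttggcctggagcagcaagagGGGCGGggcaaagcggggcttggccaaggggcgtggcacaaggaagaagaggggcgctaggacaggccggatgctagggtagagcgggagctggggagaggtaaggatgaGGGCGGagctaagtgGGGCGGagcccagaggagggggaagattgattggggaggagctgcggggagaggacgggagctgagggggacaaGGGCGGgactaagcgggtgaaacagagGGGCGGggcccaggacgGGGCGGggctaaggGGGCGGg
Trim5: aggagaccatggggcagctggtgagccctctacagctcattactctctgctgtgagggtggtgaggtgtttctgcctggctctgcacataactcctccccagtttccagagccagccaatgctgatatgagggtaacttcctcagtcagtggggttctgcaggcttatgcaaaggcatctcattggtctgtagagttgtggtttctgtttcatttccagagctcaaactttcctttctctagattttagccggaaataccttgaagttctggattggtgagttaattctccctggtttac
Coro2a: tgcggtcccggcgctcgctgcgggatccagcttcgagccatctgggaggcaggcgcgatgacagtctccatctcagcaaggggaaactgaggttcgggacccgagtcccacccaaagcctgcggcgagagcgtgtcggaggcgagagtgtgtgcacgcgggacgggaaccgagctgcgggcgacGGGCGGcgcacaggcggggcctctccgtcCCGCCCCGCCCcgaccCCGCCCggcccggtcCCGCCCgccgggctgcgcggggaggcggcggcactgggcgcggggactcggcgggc

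The Ank window holds 53 CpG dinucleotides, the Coro2a window 43, the Fam221a window 17 and the Trim5 window 1, against a median of 7 over 32851 mouse promoter windows. The 8 genes had 12 windows in all. Of these, 8 held GGGCGG, in Ank, Btbd2, Coro2a, Ddr1, Fam221a and Kcnip2, as did 35.7% of all windows. The AP-1 letters TGACTCA were in 1 Ddr1 window and in 5.20% of all windows. Neither TGACGTCA, the letters of CREB and ATF sites, nor the E-box CACGTG was in any of the 12 windows, against 1.79% and 7.15% of all windows. Both strands were read for each motif, and no match overlapped one of another motif. Ank and Coro2a, both rich in CpG in the windows shown, moved in opposite directions in culture. Trim5, with the fewest CpG of the 4, moved with Ank. The second Coro2a window, at chr4:46566391-46566690, holds 3 CpG and no GGGCGG, and which start was used here is not known. Kcnip2, not shown though it also moved alike in both genotypes, has 18 CpG.

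**Figure D1:**
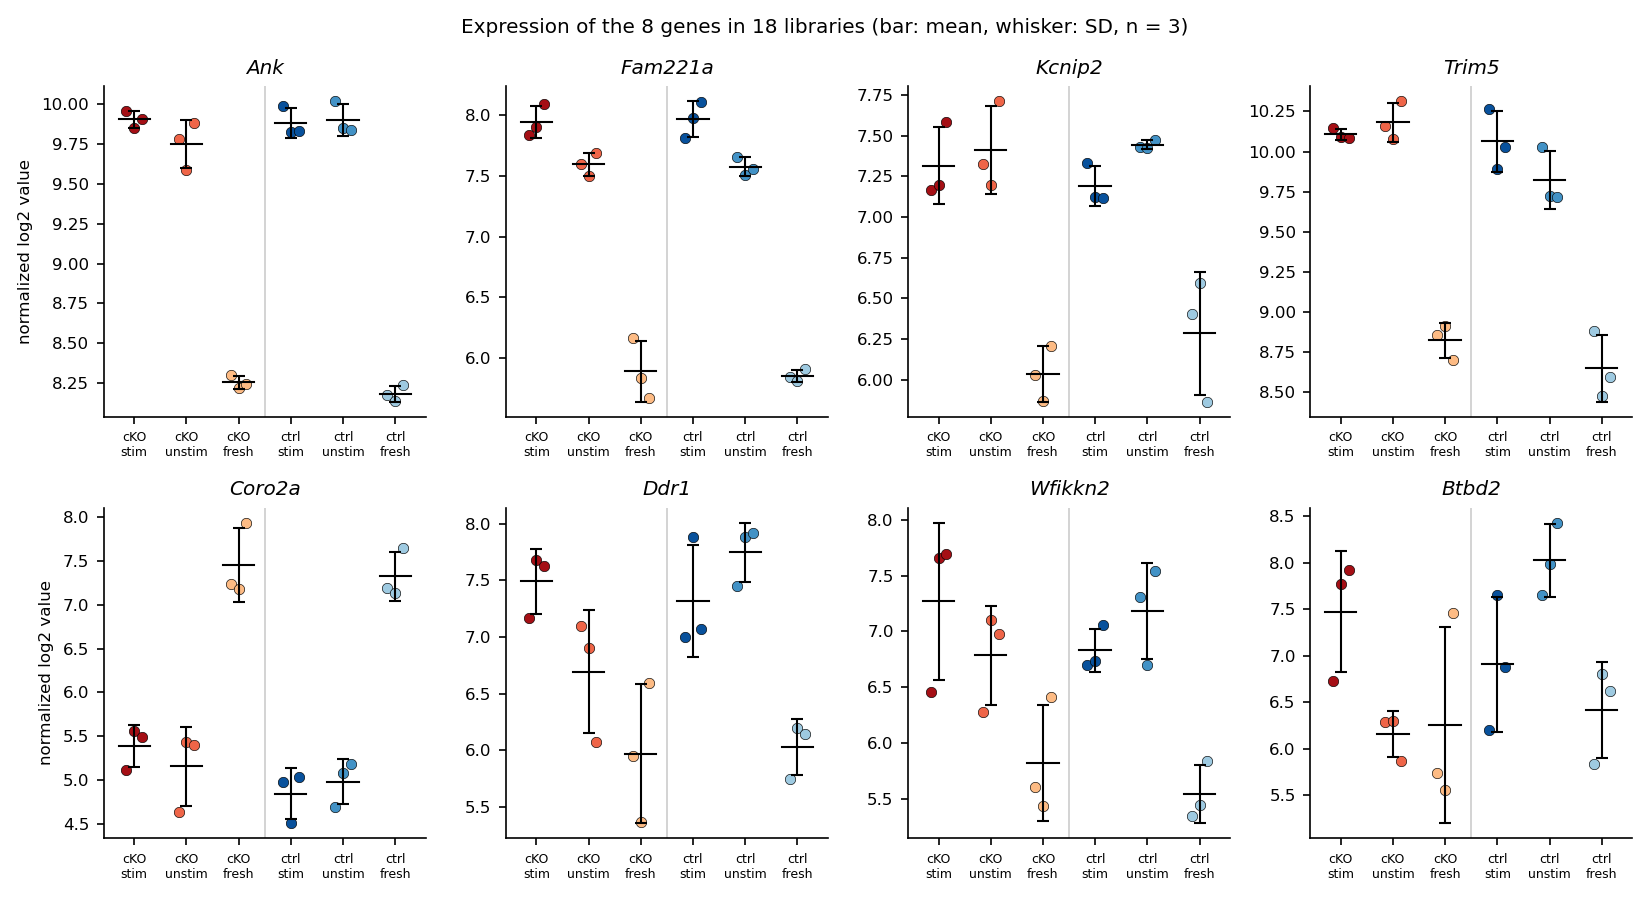
Normalized log2 value of each of the 8 genes in every library, in 6 groups of 3 from left to right: Creld1 cKO stimulated, unstimulated and fresh, then control stimulated, unstimulated and fresh, with the group mean (bar) and SD (whisker). Fresh libraries lie apart from all cultured ones for Ank, Fam221a, Kcnip2, Trim5 and Coro2a, while Btbd2 spans 5.55 to 8.43 with overlapping groups.

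Ank had closely grouped libraries in every condition. In Creld1 cKO cells its log2 values were 9.78, 9.59 and 9.88 after unstimulated culture and 8.30, 8.22 and 8.25 fresh, and in control cells 10.02, 9.85 and 9.84 after unstimulated culture and 8.17, 8.14 and 8.24 fresh. No cultured library came within 1 log2 unit of a fresh one. The differences were 1.50 ± 0.082 (SE) in cKO and 1.72 ± 0.082 in control cells, 2.82-fold and 3.29-fold. With stimulation Ank stayed at that level, at 9.96, 9.85 and 9.90 in cKO and 9.99, 9.82 and 9.83 in control cells. Stimulated and unstimulated libraries overlapped in both genotypes. Ank lies at chr15:27466677-27594909 on the plus strand of GRCm38.

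Fam221a had almost equal culture differences in both genotypes. It had 7.60, 7.50 and 7.69 after unstimulated culture and 6.16, 5.83 and 5.67 fresh in cKO cells, and 7.66, 7.51 and 7.56 after unstimulated culture and 5.84, 5.81 and 5.91 fresh in control cells. The differences were 1.71 ± 0.12 in cKO and 1.72 ± 0.12 in control cells, 3.26-fold and 3.30-fold. Unlike Ank, it was higher again with stimulation, at 7.84, 7.91 and 8.10 in cKO and 7.81, 7.98 and 8.11 in control cells. In both genotypes every stimulated library was above every unstimulated one, by means of 0.35 ± 0.12 in cKO and 0.39 ± 0.12 in control cells. Against fresh cells the stimulated difference reached 2.06 in cKO and 2.11 in control cells, and the control value was the highest signed difference of all genes tested. The gene spans chr6:49367739-49390539 on the plus strand, and none of its exonic bases is shared with another annotated gene.

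Trim5 was among the genes of highest deposited value of the 8. In cKO cells it had 10.16, 10.08 and 10.32 after unstimulated culture and 8.86, 8.91 and 8.70 fresh, and in control cells 10.03, 9.72 and 9.71 after unstimulated culture and 8.88, 8.47 and 8.59 fresh. The groups were separated in both genotypes, with differences of 1.36 ± 0.12 in cKO and 1.18 ± 0.12 in control cells. Stimulated cells had 10.15, 10.09 and 10.08 in cKO and 10.27, 9.89 and 10.03 in control cells, overlapping the unstimulated ones. Trim5 lies at chr7:104263386-104288094 on the minus strand, inside a cluster of closely related Trim genes. The sources used here do not give how reads shared between such copies were counted, so its level is uncertain to that extent.

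Kcnip2 had 7.33, 7.20 and 7.71 after unstimulated culture and 6.03, 5.87 and 6.21 fresh in cKO cells, and 7.43, 7.43 and 7.47 after unstimulated culture and 6.40, 6.59 and 5.86 fresh in control cells. Its differences were 1.38 ± 0.18 in cKO and 1.16 ± 0.18 in control cells, again without overlap. Under stimulation it stood at 7.16, 7.20 and 7.59 in cKO and 7.33, 7.12 and 7.11 in control cells. Here the control libraries were all below the unstimulated ones, at a mean of -0.26 ± 0.18, while the cKO libraries overlapped at -0.10 ± 0.18. The gene is at chr19:45791839-45816061 on the minus strand.

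Coro2a was the gene that was lower. It had 4.63, 5.44 and 5.40 after unstimulated culture and 7.24, 7.18 and 7.94 fresh in cKO cells, and 4.69, 5.08 and 5.18 after unstimulated culture and 7.19, 7.14 and 7.64 fresh in control cells. The differences were -2.30 ± 0.25 in cKO and -2.34 ± 0.25 in control cells, which leaves 0.203 and 0.197 of the fresh level. By absolute size these rank 11th of 10877 genes in cKO and 8th in control cells. Stimulated cells had 5.11, 5.56 and 5.49 in cKO and 4.98, 4.51 and 5.04 in control cells, overlapping unstimulated cells in both genotypes. Coro2a spans chr4:46536937-46602202 on the minus strand and shares 329 of 6459 exonic bases with Gm16731 on the opposite strand, whose reads cannot be told apart in libraries from a kit that does not mark strand.

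For Btbd2, Ddr1 and Wfikkn2 the control libraries were separated and the cKO libraries overlapped, a contrast between genotypes that was not tested since culture chose the genes. In each of these genes the overlap came from cKO fresh library 3 alone. The other cKO fresh libraries were below every unstimulated cKO library. For Btbd2 the log2 values were 6.29, 6.30 and 5.87 after unstimulated culture and 5.73, 5.55 and 7.46 fresh in cKO cells, against 7.66, 7.98 and 8.43 after unstimulated culture and 5.83, 6.80 and 6.62 fresh in control cells. The control difference was 1.61 ± 0.47 with separated libraries, while in cKO cells it was -0.10 ± 0.47 with overlap. That cKO value depends on fresh library 3, at 7.46: without it the difference was 0.51.

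Ddr1 had 7.10, 6.90 and 6.07 after unstimulated culture and 5.95, 5.37 and 6.60 fresh in cKO cells, and 7.45, 7.88 and 7.92 after unstimulated culture and 5.75, 6.19 and 6.14 fresh in control cells. Its difference was 0.72 ± 0.32 in cKO cells, where 1 fresh library exceeded 1 cultured library, and 1.72 ± 0.32 in control cells, where none did. Wfikkn2 had 6.28, 7.10 and 6.97 after unstimulated culture and 5.61, 5.44 and 6.41 fresh in cKO cells, and 7.31, 6.70 and 7.54 after unstimulated culture and 5.34, 5.45 and 5.84 fresh in control cells. Its differences were 0.96 ± 0.34 in cKO cells, with overlap, and 1.64 ± 0.34 in control cells, without. Ddr1 lies at chr17:35681567-35704621, with 216 exonic bases shared with the antisense gene Gm4577, Wfikkn2 at chr11:94235956-94246005 and Btbd2 at chr10:80642617-80657071, all on the minus strand.

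Counted over the 8 genes, 5 in cKO and 8 in control cells differed by more than 1 on the log2 scale between unstimulated culture and fresh cells, where 2.04% and 3.00% of all genes tested did. Libraries did not overlap for 5 genes in cKO and 8 in control cells, where 31.9% and 48.6% of all genes tested were separated. These counts were fixed by how the genes were chosen. The median difference of the 8 was 1.16 in cKO and 1.62 in control cells, beside -0.022 and 0.038 over all genes tested. In such bulk samples a change in the share of cells that carry a transcript and a change per cell cannot be told apart. The summed linear level of 5 memory or effector markers, 3 of them above the minimum, was 667 to 845 in cKO unstimulated and 1094 to 1217 in cKO fresh cells, and that of 4 regulatory T cell markers 474 to 507 and 757 to 879. In control cells the same sums were 714 to 772 in unstimulated and 1196 to 1329 in fresh cells, and 416 to 455 and 787 to 840. Sums of 6 myeloid markers in the table, 1 of them above the minimum, were 30.5 to 36.7 in unstimulated and 43.0 to 57.8 in fresh cKO cells, and 29.2 to 31.6 and 40.8 to 51.4 in control cells. Not all such sums were lower after culture. That of 6 stromal, endothelial and epithelial markers, of which only Pecam1 passed, was 2051 to 2296 in unstimulated and 1690 to 2031 in fresh cKO cells. In control cells it was 2115 to 2158 and 1938 to 1991. The sum of the 8 naive CD4+ T cell markers in the table was 62560 to 63735 in unstimulated and 53093 to 56105 in fresh cKO cells. In control cells that sum was 61388 to 62757 and 51634 to 51940. The red cell and platelet sum was higher after culture in control cells and overlapped in cKO cells. Sums for B cells and for CD8 T and NK cells overlapped in both genotypes. The part of such cells in the differences was not tested.

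Stimulated and unstimulated cells lay close together for most of the genes. Between stimulated and unstimulated cells, 1 of the 8, Btbd2, differed by more than 1 on the log2 scale in each genotype, where 1.43% of all genes did in cKO and 0.239% in control cells. Btbd2 had 6.72, 7.77 and 7.92 in stimulated cKO and 6.20, 7.65 and 6.88 in stimulated control cells. So it was higher with stimulation in cKO cells, by 1.32 ± 0.47, and lower in control cells, at -1.12 ± 0.47, with all 3 libraries beyond the unstimulated ones each way. Ddr1 had 7.17, 7.68 and 7.63 in stimulated cKO and 7.00, 7.89 and 7.07 in stimulated control cells. It was separated upward in cKO cells, at 0.80 ± 0.32, and overlapped in control cells, at -0.43 ± 0.32. Wfikkn2 had 6.45, 7.66 and 7.70 in stimulated cKO and 6.70, 6.73 and 7.05 in stimulated control cells, overlapping the unstimulated cells in both genotypes. Separated libraries were found for 3 of the 8 in each genotype, namely Fam221a, Ddr1 and Btbd2 in cKO and Fam221a, Btbd2 and Kcnip2 in control cells, beside 42.3% and 20.5% of all genes tested.

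Set against fresh cells, stimulated cells gave a similar picture for Ank, Fam221a, Kcnip2, Trim5 and Coro2a. For Ddr1, Wfikkn2 and Btbd2 the difference from the deposited values was larger in cKO than in control cells, the reverse of unstimulated culture. The SE of each difference was 0.32 for Ddr1, 0.34 for Wfikkn2 and 0.47 for Btbd2. This order did not hold in the model with library GC slope described below. All 8 genes in cKO and 6 in control cells differed by more than 1 on the log2 scale, where 3.21% and 2.02% of all genes tested did. Differences were 1.65 in cKO and 1.70 in control cells for Ank, 1.29 and 1.42 for Trim5, and -2.07 and -2.48 for Coro2a. For Kcnip2 they were 1.28 and 0.90, for Ddr1 1.52 and 1.29, for Wfikkn2 1.45 and 1.29, and for Btbd2 1.22 and 0.49. Libraries were separated for 7 of the 8 in each genotype, where 32.7% of all genes in cKO and 34.2% in control cells were, and Btbd2 overlapped in both. Because both culture comparisons use the same fresh libraries, their likeness is in part built in.

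**Figure D2:**
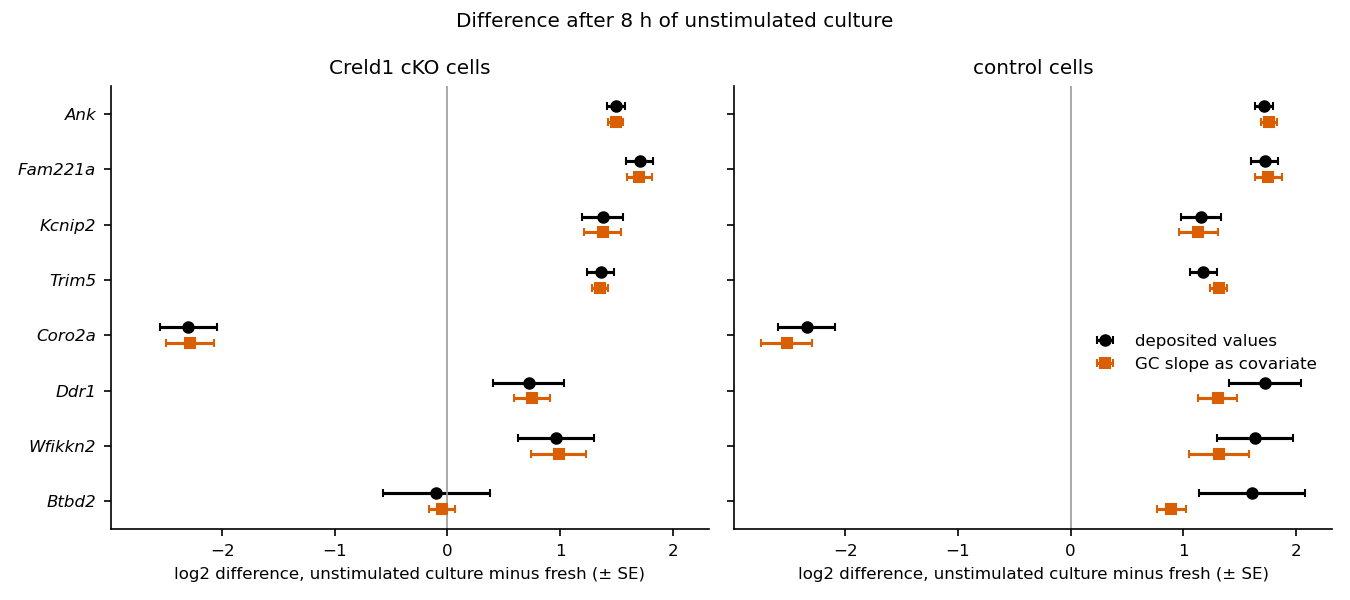
Log2 difference of unstimulated culture minus fresh cells (± SE) for the 8 genes in Creld1 cKO (left) and control cells (right), from the deposited values (circles) and with library GC slope in the model (squares). For Ank, Fam221a, Kcnip2, Trim5 and Coro2a both estimates lie close together, and the control value of Btbd2 is 0.89 with GC slope and 1.61 without.

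The 3 genes with overlapping cKO libraries have the most GC-rich transcripts of the 8. Transcript GC content was 61.6% for Btbd2, 59.7% for Ddr1 and 55.6% for Wfikkn2, and between 40.8% (Trim5) and 55.1% (Kcnip2) for the others, over a median of 49.2% for all symbols matched. Libraries also differed in how strongly their values followed GC content. This GC slope, the log2 change per SD of transcript GC, was -0.13, -0.066 and -0.19 in cKO unstimulated and 0.064, 0.15 and 0.24 in control unstimulated libraries. It was -0.028, 0.15 and 0.15 in cKO and -0.12, 0.13 and 0.0031 in control stimulated libraries, and -0.19, -0.31 and 0.16 in cKO and -0.16, 0.083 and 0.064 in control fresh libraries. The unstimulated genotypes thus did not overlap in GC slope, and cKO fresh library 3 stood apart from the other 2 of its group. The highest Btbd2 value, 8.43, was in the library of highest GC slope and the lowest, 5.55, in that of lowest GC slope.

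**Figure D3:**
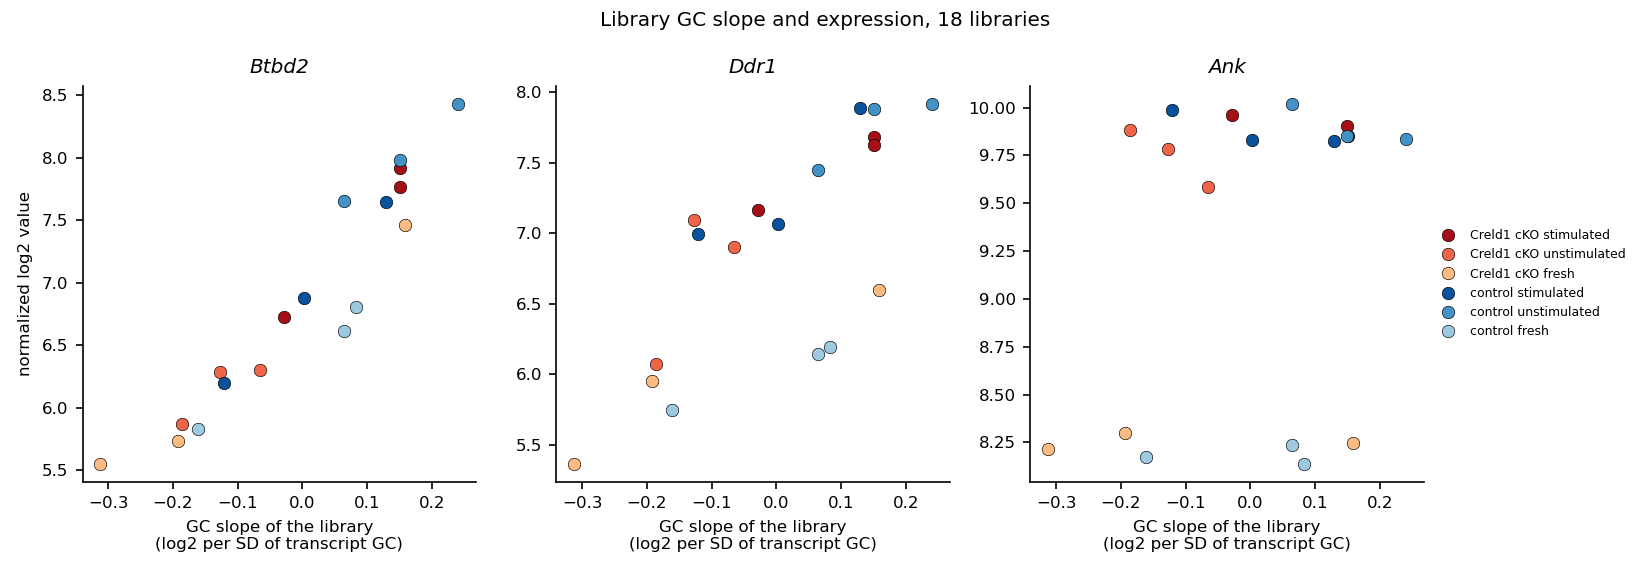
Normalized log2 value of Btbd2, Ddr1 and Ank against the GC slope of the library (log2 change per SD of transcript GC content), 1 point for each of 18 libraries, coloured by group. Btbd2 runs from 5.55 at the lowest slope to 8.43 at the highest, whereas Ank falls into a fresh and a cultured level, 8.14 to 8.30 and 9.59 to 10.02, at any slope.

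Once library GC slope entered the model, the culture difference of Btbd2 was -0.048 ± 0.12 in cKO and 0.89 ± 0.13 in control cells. That of Ddr1 was 0.75 ± 0.16 and 1.30 ± 0.17, and that of Wfikkn2 0.99 ± 0.25 and 1.32 ± 0.26. Values of the other 5 moved less, Trim5 being at 1.35 in cKO and 1.31 in control cells and Coro2a at -2.29 and -2.52. The opposite stimulation differences of Btbd2 became 0.33 ± 0.14 in cKO and -0.44 ± 0.13 in control cells, so that 0 of the 8 genes differed by more than 1 between stimulated and unstimulated cells. In the same model stimulated minus fresh cells gave 0.97 ± 0.18 in cKO and 1.27 ± 0.16 in control cells for Ddr1. For Wfikkn2 it gave 1.03 ± 0.28 and 1.27 ± 0.25, and for Btbd2 0.28 ± 0.13 and 0.45 ± 0.12. In unstimulated culture GC slope and genotype went together and cannot be told apart.

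Creld1 cKO and control cells were compared in each condition. Only the stimulated libraries had no part in choosing the genes, so the genotype test is read in stimulated culture alone, and the counts and differences in unstimulated and fresh cells and averaged over conditions are a description. None of the 8 passed an adjusted p of 0.05 in any condition (limma, all 10877 genes): 0 of 8 in stimulated, unstimulated and fresh cells and averaged over them, where 0%, 0%, 0.00919% and 0.0184% of all genes did. At an unadjusted p below 0.05, 160 of all genes passed in stimulated, 3606 in unstimulated and 429 in fresh cells, and 901 averaged over conditions, among them 1, 3, 0 and 1 of the 8. Btbd2 in unstimulated culture had the largest difference of the 8, -1.87 ± 0.47, with all cKO libraries below all control libraries, among them those that chose the gene. Ddr1 was at -1.06 ± 0.32 and Trim5 at 0.36 ± 0.12, both with separated libraries, where 52.1% of all genes were separated. The count in unstimulated culture was 2 of 8 with a replicate block by run of library numbers and 3 of 8 without cKO fresh library 3, where 8.15% and 26.1% of all genes were called. In the model with GC slope the 3 differences were -0.61 for Btbd2, -0.32 for Ddr1 and 0.11 for Trim5, and the count was 0.

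In stimulated culture the genotypes overlapped for 7 of the 8 genes. Coro2a was the exception, higher in cKO cells by 0.54 ± 0.25 with separated libraries, where 6.19% of all genes were separated, at an unadjusted p of 0.047 and a limma adjusted p of 0.974. Among fresh cells all 8 genes overlapped, where 4.31% of all genes were separated, and the differences ran from -0.25 for Kcnip2 to 0.28 for Wfikkn2. For Ank the 95% intervals of the genotype difference ran from -0.15 to 0.20 in stimulated, -0.33 to 0.023 in unstimulated and -0.10 to 0.25 in fresh cells, and for Fam221a from -0.28 to 0.24, -0.24 to 0.28 and -0.23 to 0.29. The genotype difference in stimulated minus that in unstimulated cells was 2.44 ± 0.67 for Btbd2 and 1.23 ± 0.45 for Ddr1. It contains the unstimulated libraries that chose the genes and is given with no test.

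**Figure D4:**
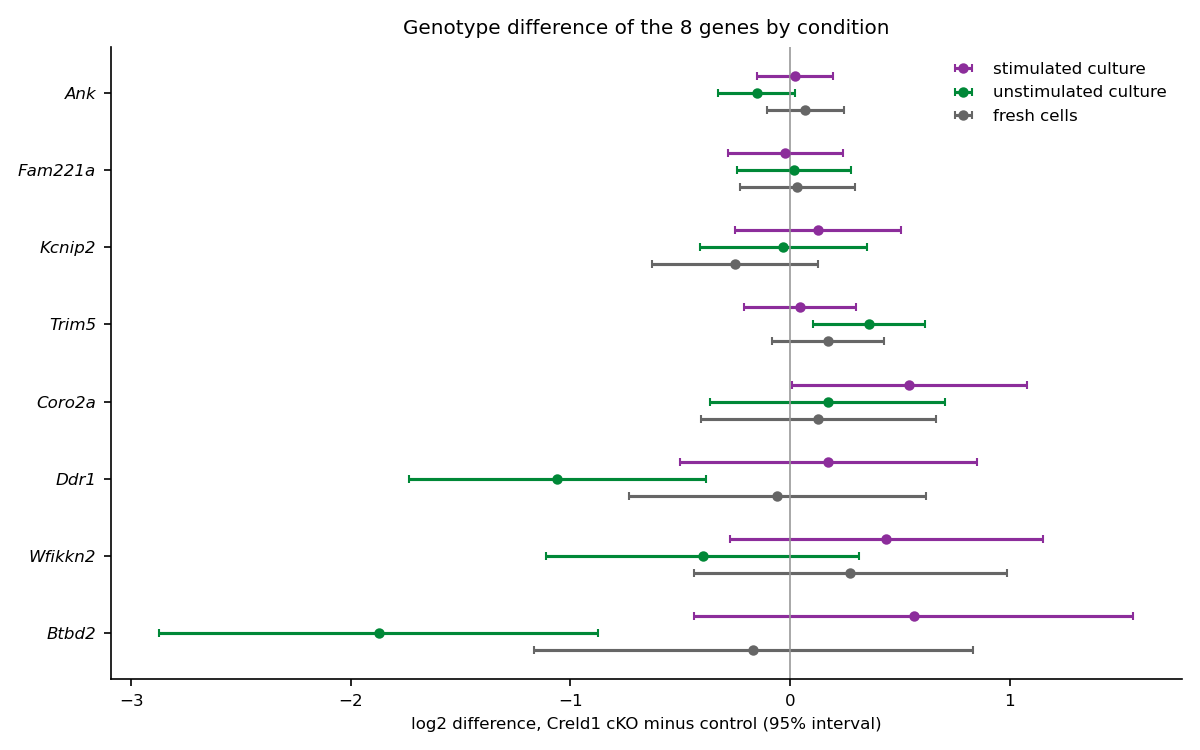
Log2 difference of Creld1 cKO minus control cells with its 95% interval for the 8 genes in stimulated culture, unstimulated culture and fresh cells. Intervals of Ank, Fam221a, Kcnip2 and Wfikkn2 include 0 in each condition, and Btbd2 in unstimulated culture lies farthest from 0 at -1.87. Unstimulated and fresh libraries also chose the genes, so their intervals are a description.

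Per kilobase of transcript on the linear scale, Ank and Trim5 had the highest values of the 8 and Coro2a in culture the lowest. How the deposited values were made is not given, so this order between genes may not be one of abundance. In unstimulated culture, group means per kilobase were 247 in cKO and 274 in control cells for Ank, 319 and 249 for Trim5, 70.9 and 69.9 for Fam221a, and 55.4 and 55.9 for Kcnip2. They were 27.9 and 56.2 for Ddr1, 32.3 and 42.5 for Wfikkn2, 23.7 and 88.2 for Btbd2, and 8.85 and 7.69 for Coro2a. In fresh cells Coro2a was at 43.5 in cKO and 39.1 in control cells, above Fam221a at 21.9 and 21.2. Culture thus turned round the order of these genes in both genotypes.

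Over the 18 libraries Ank and Fam221a followed each other most closely (Pearson r = 0.98), and Trim5 ran with them at 0.96 and 0.96. Btbd2 was close to Ddr1 (0.85) and far from Trim5 (0.23). These correlations rest largely on the step from fresh to cultured cells that chose the genes, and are given as a description. The genes likest to Ank were Ccdc126 (0.99), Patj (0.99) and Zbtb9 (0.99), and those likest to Fam221a were Trio (0.99), Ccdc126 (0.98) and Igf1r (0.98). Trim5 was nearest to Irak3 (0.99), Lamp2 (0.98) and Tnfrsf26 (0.98), and Kcnip2 to Art4 (0.97), Gypc (0.96) and Pnpla7 (0.95). Coro2a went with Scd2 (0.98), Rnf113a2 (0.98) and Jun (0.97). Jun, an early response transcription factor gene, averaged 6.87 ± 0.18 (SD, n = 3) in cKO and 7.25 ± 0.26 in control unstimulated cells, and 10.4 ± 0.60 in cKO and 10.4 ± 0.27 in control fresh cells. Scd2 averaged 7.67 in cKO and 7.48 in control unstimulated cells, and 8.50 and 8.37 in fresh cells. Rnf113a2 averaged 6.81 and 6.86 in unstimulated and 7.59 and 7.54 in fresh cells. Jun was singled out after its values were seen, and what moved Coro2a was not tested. Ddr1 was nearest to B3galt4 (0.97), Zer1 (0.97) and Hdac5 (0.97), and Wfikkn2 to Pgpep1l (0.94), Gga2 (0.92) and Cyp2d22 (0.92). Mib2 (0.99), Unk (0.99) and Sphk2 (0.98) were likest to Btbd2, whose r exceeded 0.9 with 780 genes, against 16 for Wfikkn2 and 90 to 274 for the other 6. Transcripts of the 3 genes nearest to Btbd2 had a GC content of 56.9% to 61.1%.

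Genes related to the 8 were examined next, to see whether culture moved their families. Of 69 listed relatives and partners, 60 were in the table and 46 were tested. After unstimulated culture 4 were higher and 5 lower in cKO cells (19.6%), and 6 were higher and 8 lower in control cells (30.4%), at a limma adjusted p below 0.05. Over all genes tested 22.1% in cKO cells passed (10.7% higher, 11.4% lower) and 29.0% in control cells (14.9% higher, 14.1% lower), so the share of the relatives was near that of any gene. Their median difference was 0.0046 in cKO and 0.0030 in control cells. In the model with GC slope 21 passed in cKO cells, as did 4935 of all genes, against 2408 without it.

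Of the TRIM genes of the Trim5 cluster and antiviral TRIM genes, 6 of 9 tested were called in each genotype. In cKO cells Trim12a, Trim34a, Trim34b and Trim25 were higher and Trim30d and Trim21 lower, and in control cells Trim12c, Trim30b, Trim34a and Trim25 were higher and Trim30d and Trim21 lower. Trim34a averaged 9.70 ± 0.10 (SD, n = 3) in cKO unstimulated and 9.10 ± 0.22 in cKO fresh cells, and 9.46 ± 0.045 in control unstimulated and 8.98 ± 0.16 in control fresh cells. The differences, 0.60 in cKO (limma adjusted p = 0.001) and 0.48 in control cells (limma adjusted p = 0.006), were well below those of Trim5. Trim30d, an interferon-inducible relative, was lower, at -0.74 in cKO and -0.79 in control cells (limma adjusted p = 0.004 and 0.002). Trim21, a cytosolic antibody receptor, was at -0.32 and -0.39 (limma adjusted p = 0.005 and 0.001). Trim25, a ubiquitin ligase of the RIG-I pathway, was higher by 0.20 and 0.23 (limma adjusted p = 0.034 and 0.012), and the cKO call was lost in 8 of 27 alternatives. The higher values were 0.39 for Trim12a and 0.74 for Trim34b in cKO cells and 0.36 for Trim12c and 0.63 for Trim30b in control cells, and these calls were lost in 1 to 5 alternatives. Reads shared between copies limit how far they can be told apart.

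**Figure D5:**
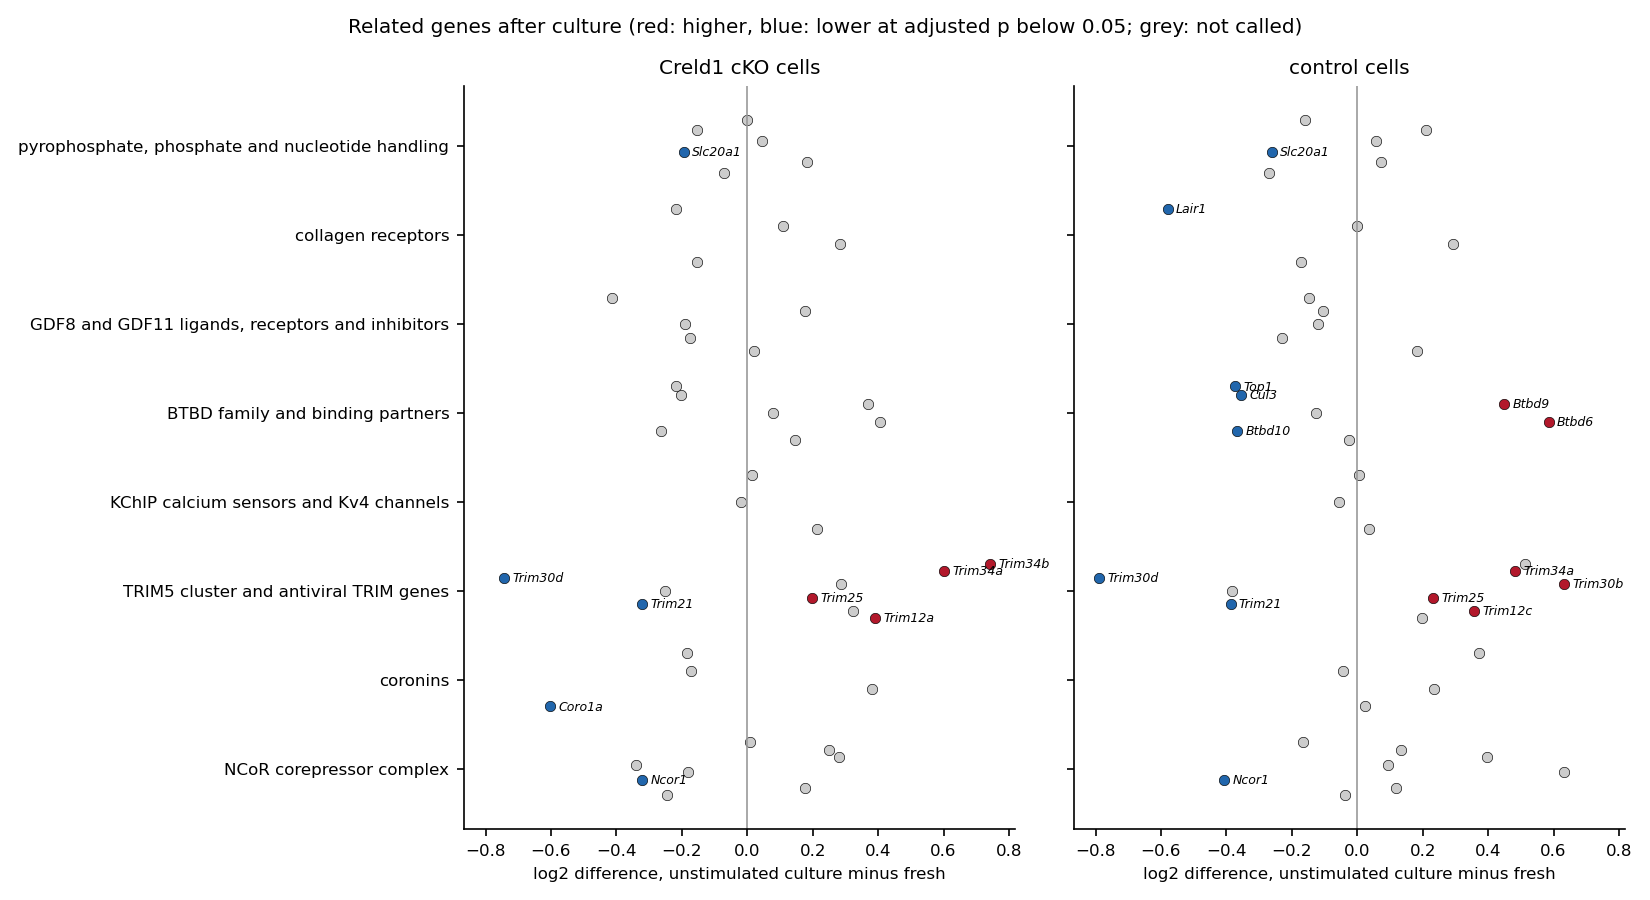
Log2 difference of unstimulated culture minus fresh cells for 46 relatives and partners of the 8 genes, by family, in Creld1 cKO (left) and control cells (right). Red points were higher and blue points lower at a limma adjusted p below 0.05, and 6 of 9 TRIM genes were called in each genotype.

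Relatives and partners of Btbd2 were called in control cells. There Btbd6 and Btbd9 were higher, by 0.58 and 0.45, and Btbd10, Cul3 and Top1 were lower, at -0.37, -0.35 and -0.37, 5 of 7 tested (limma adjusted p between 0.015 and 0.049). In cKO cells 0 of 7 passed (limma), 2 of them at an unadjusted p below 0.05, with values of the same sign for these 5. Over all genes tested 29.0% passed in control and 22.1% in cKO cells. In the model with GC slope these control differences were smaller, at 0.30 for Btbd6, 0.28 for Btbd9, -0.27 for Btbd10, -0.19 for Cul3 and -0.20 for Top1, each with a limma adjusted p below 0.05. The calls of Btbd6, Cul3 and Top1 were lost in 17, 13 and 20 of 27 alternatives, and the difference between genotypes was not tested. Cul3 is the ubiquitin ligase scaffold that BTB proteins bind, and Top1 is topoisomerase I.

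Among coronins, Coro1a, the main coronin of lymphocytes, was lower in cKO cells, at -0.60 (limma adjusted p = 0.008). It averaged 11.8 ± 0.10 in cKO unstimulated and 12.4 ± 0.21 in cKO fresh cells, and 12.3 ± 0.21 in control unstimulated and 12.3 ± 0.17 in control fresh cells. None of the other 3 coronins tested passed, and the control difference of Coro1a was 0.023 (limma adjusted p = 0.920). In the NCoR complex, to which Coro2a is linked, Ncor1 was lower, at -0.32 in cKO and -0.41 in control cells (limma adjusted p = 0.010 and 0.002), 1 of 8 genes in each. Around Ank, the phosphate importer Slc20a1 was lower, at -0.19 in cKO and -0.26 in control cells (limma adjusted p = 0.030 and 0.005), 1 of 6 genes in each. Its cKO call was lost in 9 of 27 alternatives, and that of Ncor1 in 3.

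Of the collagen receptors grouped with Ddr1, Lair1, an inhibitory receptor for collagen, was lower in control cells, at -0.58 (limma adjusted p = 0.012) and stood at -0.22 in cKO cells (limma adjusted p = 0.361). Itgb1, the integrin chain of highest level in that group, differed by 0.11 in cKO and -0.00035 in control cells. None of 5 genes of the GDF8 and GDF11 pathway passed in either genotype (limma, 0 also at an unadjusted p below 0.05), Acvr1b, a receptor and the highest of them, being at 0.021 in cKO and 0.18 in control cells. None of 3 genes of the KChIP and Kv4 group passed (limma, 0 also unadjusted), Dpp10, a channel subunit and the highest of them, being at 0.21 in cKO and 0.036 in control cells. Fam221b, the other FAM221 gene, was below the minimum level. Stimulation called 0 of the 46 relatives against unstimulated cells (limma), where 0.285% of all genes in cKO and 0.349% in control cells passed. At an unadjusted p below 0.05, 13 of the 46 in cKO and 4 in control cells passed.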

How the data were processed

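RNA of sorted naive CD4+ T cells was sequenced in 18 libraries, which were grouped by their titles and genotype labels. Per the labels' protocols, 10 ng of RNA went into TruSeq libraries, read as single ends of 75 bp. The submitters' processing notes list CASAVA 1.8, HISAT2 2.1.0, SAMtools 1.4, Partek 6.6, DESeq2 and mm10, with no role or order. The deposited values are scores already normalized by the authors and, judged from their range of -1.36 to 17.2, on a log2 scale. The sources used here do not give how they were made, so the depth per library is unknown. Their linear sums were 6782465 to 7419367 per library.

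For 10877 genes the deposited log2 values were modelled by the means of 6 groups with limma 3.58.1 (R 4.3.3; trended empirical Bayes, two-sided tests, Benjamini-Hochberg adjustment, threshold 0.05) and tested on simulated data. The GC slope of a library is the slope of its values, centred per gene, on transcript GC content (GENCODE M21, longest transcript, 99.3% of tested genes). The 8 genes, their relatives, partly the tests and the named genes were chosen with earlier results of these data known. Named were the 8, Creld1, relatives that passed or the highest of a family in which none did, and the 3 genes of highest Pearson correlation with each. Genotype tests of the 8 were planned in every condition, but unstimulated and fresh libraries also chose the genes. Counts, differences and intervals that use them are a description, with nothing read from them. Of such neighbours, only those of Coro2a are given with group means, Jun having been chosen for this after its values were seen. For those of Btbd2 only the direction of the group means is named, also after the values were seen. Runs of library numbers, given in accession order, each hold a library of every group. Whether they pair the libraries is not stated, and the model as reported leaves them out.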

Additional observations from a re-analysis of the deposited data

Results flagged for a closer look

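Btbd2 is the 1 result set apart here, because stimulation moved it in opposite directions in the genotypes. Stimulated minus unstimulated cells gave a log2 difference of 1.32 in Creld1 cKO and -1.12 in control cells, with every stimulated cKO library above and every stimulated control library below the unstimulated ones. The 2 values differed by 2.44 ± 0.67 (SE), and this difference was not tested, because the unstimulated libraries in it also chose the gene. In a model with library GC slope the values were 0.33 in cKO and -0.44 in control cells, and their difference 0.77.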

How the results depend on the processing

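Of the 8 genes, 0 were called between genotypes in unstimulated culture, but 3 when only the groups compared were fitted, where 34.4% of all genes were called, and 2 with a replicate block by run of library numbers, where 8.15% were, against 0% as reported. Leaving out 1 library at a time gave 0 to 3, and 0 to 2 averaged over conditions, the highest in both without cKO fresh library 3, where 26.1% and 14.8% of all genes were called. All these counts of the 8 genes use libraries that chose them, so they describe the models and are no test result. Whether the runs pair the libraries is not stated, and the correlations between libraries do not settle it. Of 45 same-run pairs, 25 correlated above 0.1, from -0.68 to 0.69. Their median was 0.13, against -0.067 for pairs from different runs. Relatives called after unstimulated culture numbered 14 in control cells, or 8 to 16 with 1 library left out (8 without control fresh library 1 or control unstimulated library 2, 9 without library 3 of either). In cKO cells they numbered 9, or 3 with only the groups compared, 21 with the GC slope, 22 with the replicate block and GC slope, and 6 to 15 with 1 library left out (15 without cKO fresh library 3). Signs turned for Btbd2 after culture in cKO cells (-0.45 to 0.51 with 1 library left out, above 0 without cKO fresh library 3 or cKO unstimulated library 3). With block and GC slope they turned for Ddr1 under stimulation in control cells (0.088) and in its genotype difference of stimulated minus unstimulated cells (-0.056). Of 1048 further values, differences of the 8 genes under the alternatives that are not given singly, 66 changed sign. The cause was not tested. Counts over 1 on the log2 scale, summed over genotypes and comparisons, stayed within 1.5 times. Between stimulated and unstimulated cells alone the 1 gene became 0 in both genotypes with GC slope, with or without the block, 2 in cKO cells without cKO unstimulated library 1, and 0 in control cells without control stimulated library 1 or control unstimulated library 3. Quantile normalization moved the median of all genes to -0.11 in the genotype difference of stimulated minus unstimulated cells, against 0.011 as deposited. Depth is unknown, and 3 libraries a group limit the precision.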
